A study of Homo sapiens with 4 samples.

Results

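The genes of the FACT complex and of 8 other histone chaperones were examined in nucleosome maps of BE(2)C cells, a cell line derived from a human neuroblastoma that carries many copies of the MYCN oncogene. The 10 genes were a list chosen with earlier results of these data known, out of 20163 protein-coding genes. They were SUPT16H and SSRP1 (FACT), ASF1A, ASF1B, CHAF1A, CHAF1B, NASP, HIRA, DAXX and NAP1L1. The series held 4 libraries. In 2 of them the cells had received a control siRNA (control replicates 1 and 2), and in 2 an siRNA against MYCN (MYCN knockdown replicates 1 and 2). All the cells carried the label of wild type genotype. The labels give 80 nM siRNA with Lipofectamine 2000 for both arms, whereas the methods of the study state a lower final concentration. Every library came from the same line, and no label says whether the replicates were separate cultures, so that p-values measure only the spread between these libraries. MYCN itself was not measured in these files, and the knockdown could therefore not be checked in them. From other assays the study reported lower mRNA and protein of MYCN and of both FACT subunits after knockdown.

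Histone chaperones are proteins that hand histones to DNA or take them off it without using ATP. FACT loosens a nucleosome by displacing an H2A-H2B dimer so that polymerases can pass, and restores it afterwards. ASF1 brings new H3-H4 dimers to the CAF-1 complex, which deposits them on replicated DNA, and to HIRA, which deposits the variant H3.3 in active genes. DAXX places H3.3 in heterochromatin with ATRX, NASP keeps a soluble store of H3-H4, and NAP1L1 carries H2A-H2B. The study had asked whether MYCN controls FACT and the nucleosome arrangement of promoters. The question here was how nucleosomes lay on the chaperone genes themselves, and whether they lay differently after MYCN knockdown.

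What was counted were called nucleosomes. In MNase-seq, chromatin is digested with an enzyme that spares the DNA wrapped around histones, and the midpoint of a sequenced fragment marks the centre, or dyad, of a nucleosome. Each file listed nucleosomes of 147 bp with a read count and a fuzziness, the standard deviation in bp of the fragment midpoints around the dyad. A low fuzziness means that the fragments agreed on 1 position. No nucleosome with under 6 reads was listed. Control replicate 1 held 10527010 nucleosomes with 147726171 reads, control replicate 2 held 12120711 with 242544884, MYCN knockdown replicate 1 held 10677252 with 147370973, and MYCN knockdown replicate 2 held 12178724 with 239257113. The median nucleosome had 12 reads in both replicates numbered 1 and 18 in both numbered 2, and mean fuzziness was 34.583 and 34.605 bp against 36.086 and 36.078 bp. Depth thus went with the replicate number and not with the siRNA. At 12 to 18 reads per nucleosome, single nucleosomes of the chaperone genes rest on few reads, and a gap in a list can be a place that fell short of 6 reads.

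Positions are given from the transcription start site (TSS) of the canonical transcript, with negative values upstream, and in GRCh37 coordinates. SUPT16H lies on chromosome 14 (21819635 to 21852178, minus strand) and SSRP1 on chromosome 11 (57093460 to 57103366, minus strand). SUPT16H is the larger, with 32544 bp and 26 exons against 9907 bp and 17 exons. The start of SUPT16H is 267 bp from that of a divergent long noncoding RNA gene, ENSG00000260830, and that of NASP 108 bp from another, ENSG00000289407. The start of HIRA lies 812 bp from that of MRPL40, which encodes a mitochondrial ribosomal protein. The start of ASF1B lies 557 bp from that of a divergent long noncoding RNA gene, ADGRL1-AS1. MNase-seq has no strand, so the upstream nucleosomes of these genes belong to both neighbours alike. The chaperone promoters were GC-rich, with a median of 65% G and C in the 300 bp around the TSS (positions -250 to 50), against 63.3% over all promoters, and a median ratio of observed to expected CpG of 0.906 against 0.773.

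The following stretches are shown because the descriptions below turn on them. They were read from GRCh37 and run 5′ to 3′ on the strand of the gene. For SUPT16H (chr14:21852179-21852428, minus strand, 250 bases directly upstream of the TSS) and CHAF1A (chr19:4402437-4402636, plus strand, 200 bases directly upstream) the capitals mark CACGTG, the canonical E-box to which MYC proteins with MAX can bind. For SSRP1 (chr11:57103367-57103616, minus strand, 250 bases directly upstream) they mark the bases from the most upstream to the most downstream position of the first upstream dyad over the 4 libraries. For ASF1A (chr6:119215037-119215183, plus strand) the 147 bp of the first upstream nucleosome are given, with the GC boxes in capitals (GGGCGG on either strand). For CHAF1B (chr21:37762673-37762819, plus strand) an intronic nucleosome is given whose dyad lay on 1 of the 5 capital bases in each library.
SUPT16H: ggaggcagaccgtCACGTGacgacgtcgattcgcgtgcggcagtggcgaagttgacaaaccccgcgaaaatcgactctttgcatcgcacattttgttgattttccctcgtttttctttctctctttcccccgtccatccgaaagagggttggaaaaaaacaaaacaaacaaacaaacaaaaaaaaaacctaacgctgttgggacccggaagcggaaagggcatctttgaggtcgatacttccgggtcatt
CHAF1A: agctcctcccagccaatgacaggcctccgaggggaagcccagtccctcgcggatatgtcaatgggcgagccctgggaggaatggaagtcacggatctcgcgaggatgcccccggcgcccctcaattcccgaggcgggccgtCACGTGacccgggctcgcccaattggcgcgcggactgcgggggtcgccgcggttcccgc
SSRP1: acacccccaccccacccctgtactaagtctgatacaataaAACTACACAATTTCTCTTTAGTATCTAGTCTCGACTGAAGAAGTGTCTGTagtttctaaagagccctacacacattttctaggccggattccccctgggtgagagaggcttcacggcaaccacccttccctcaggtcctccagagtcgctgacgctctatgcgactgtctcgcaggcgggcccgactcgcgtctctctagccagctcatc
ASF1A: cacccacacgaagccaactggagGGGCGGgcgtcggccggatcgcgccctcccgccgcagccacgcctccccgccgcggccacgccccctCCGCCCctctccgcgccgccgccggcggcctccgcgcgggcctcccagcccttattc
CHAF1B: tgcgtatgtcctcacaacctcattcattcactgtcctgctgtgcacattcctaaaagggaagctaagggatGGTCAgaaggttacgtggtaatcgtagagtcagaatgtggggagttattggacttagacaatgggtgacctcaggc

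The letters of 4 motifs were searched on both strands between positions -250 and 50 bp. CACGTG was found in 2 of the 10 genes, SUPT16H and CHAF1A, and in 8.74% of 20163 promoters. CACGCG was found in 2 (SUPT16H and HIRA; 15.1% of promoters), GGGCGG in 8 (60.9%) and CCAAT in 5 (35.9%). The E-box of CHAF1A began 59 bp upstream of the TSS, inside the empty stretch of its promoter. Its nearest dyads were 158 and 164 bp away in the control libraries and 160 and 148 bp away in the knockdown libraries, so that it lay outside every called nucleosome in all 4. The E-box of SUPT16H began 237 bp upstream. It lay inside a nucleosome, 63.5 bp from the dyad, in control replicate 1, and outside any nucleosome in the other libraries, with the nearest dyad at least 92.5 bp away. CHAF1B held 6 GC boxes between 110 and 20 bp upstream, all of them outside called nucleosomes in all 4 libraries, whereas the GC box of ASF1A at -189 bp lay inside a nucleosome in all 4. A match of letters shows neither binding nor its absence.

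By the rule of the study, most of the chaperone genes had a free window at the start. The study defined the nucleosome-free region of a promoter as positions -200 to 50 bp, and this window was counted as held when a nucleosome lay at least 80% inside it. By this rule 7 of the 10 windows were free in all 4 libraries, whereas 32.3% of 20079 promoters were. These 7 were SSRP1, ASF1A, ASF1B, CHAF1A, CHAF1B, NASP and NAP1L1. A free window could still be partly covered. The first upstream dyad of SSRP1 lay at -162 and -161 bp in the controls. That of NASP lay at -180 bp in control replicate 2 and at -180 and -174 bp in the knockdown libraries. Reads in the 4 kb centred on the TSS were low in SSRP1 and NASP, above 15.4% and 9.84% of promoters. The part of the minimum of 6 reads in their free windows was not tested. No window of the list was held in all 4 libraries, against 19.9% of all promoters. None was free in both controls and held in both knockdown libraries (5.25% of the 8457 promoters that were free in both controls), and none went the other way (5.64% of 8559 that were free in both knockdown libraries).

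The other 3 windows differed between replicates of 1 group. In SUPT16H the window was free in control replicate 1 and held by a nucleosome of 15 reads in control replicate 2, of 7 in knockdown replicate 1 and of 14 in knockdown replicate 2. The 3 dyads lay within 3 bp of each other, at -118, -121 and -118 bp, and in control replicate 1 the nucleosome lay further out, at -171 bp with 12 reads. In DAXX the window was also free in control replicate 1 only. The holding nucleosomes of DAXX had 6 reads each, the fewest that the files list, at -69, -118 and -121 bp. In HIRA the window was held in control replicate 2 only, by a nucleosome of 32 reads at -141 bp, and the same nucleosome lay at -163, -159 and -161 bp with 23, 8 and 33 reads in the other libraries. For HIRA the change of state was thus a difference of about 20 bp in 1 library across the edge of the rule.

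**Figure D1:**
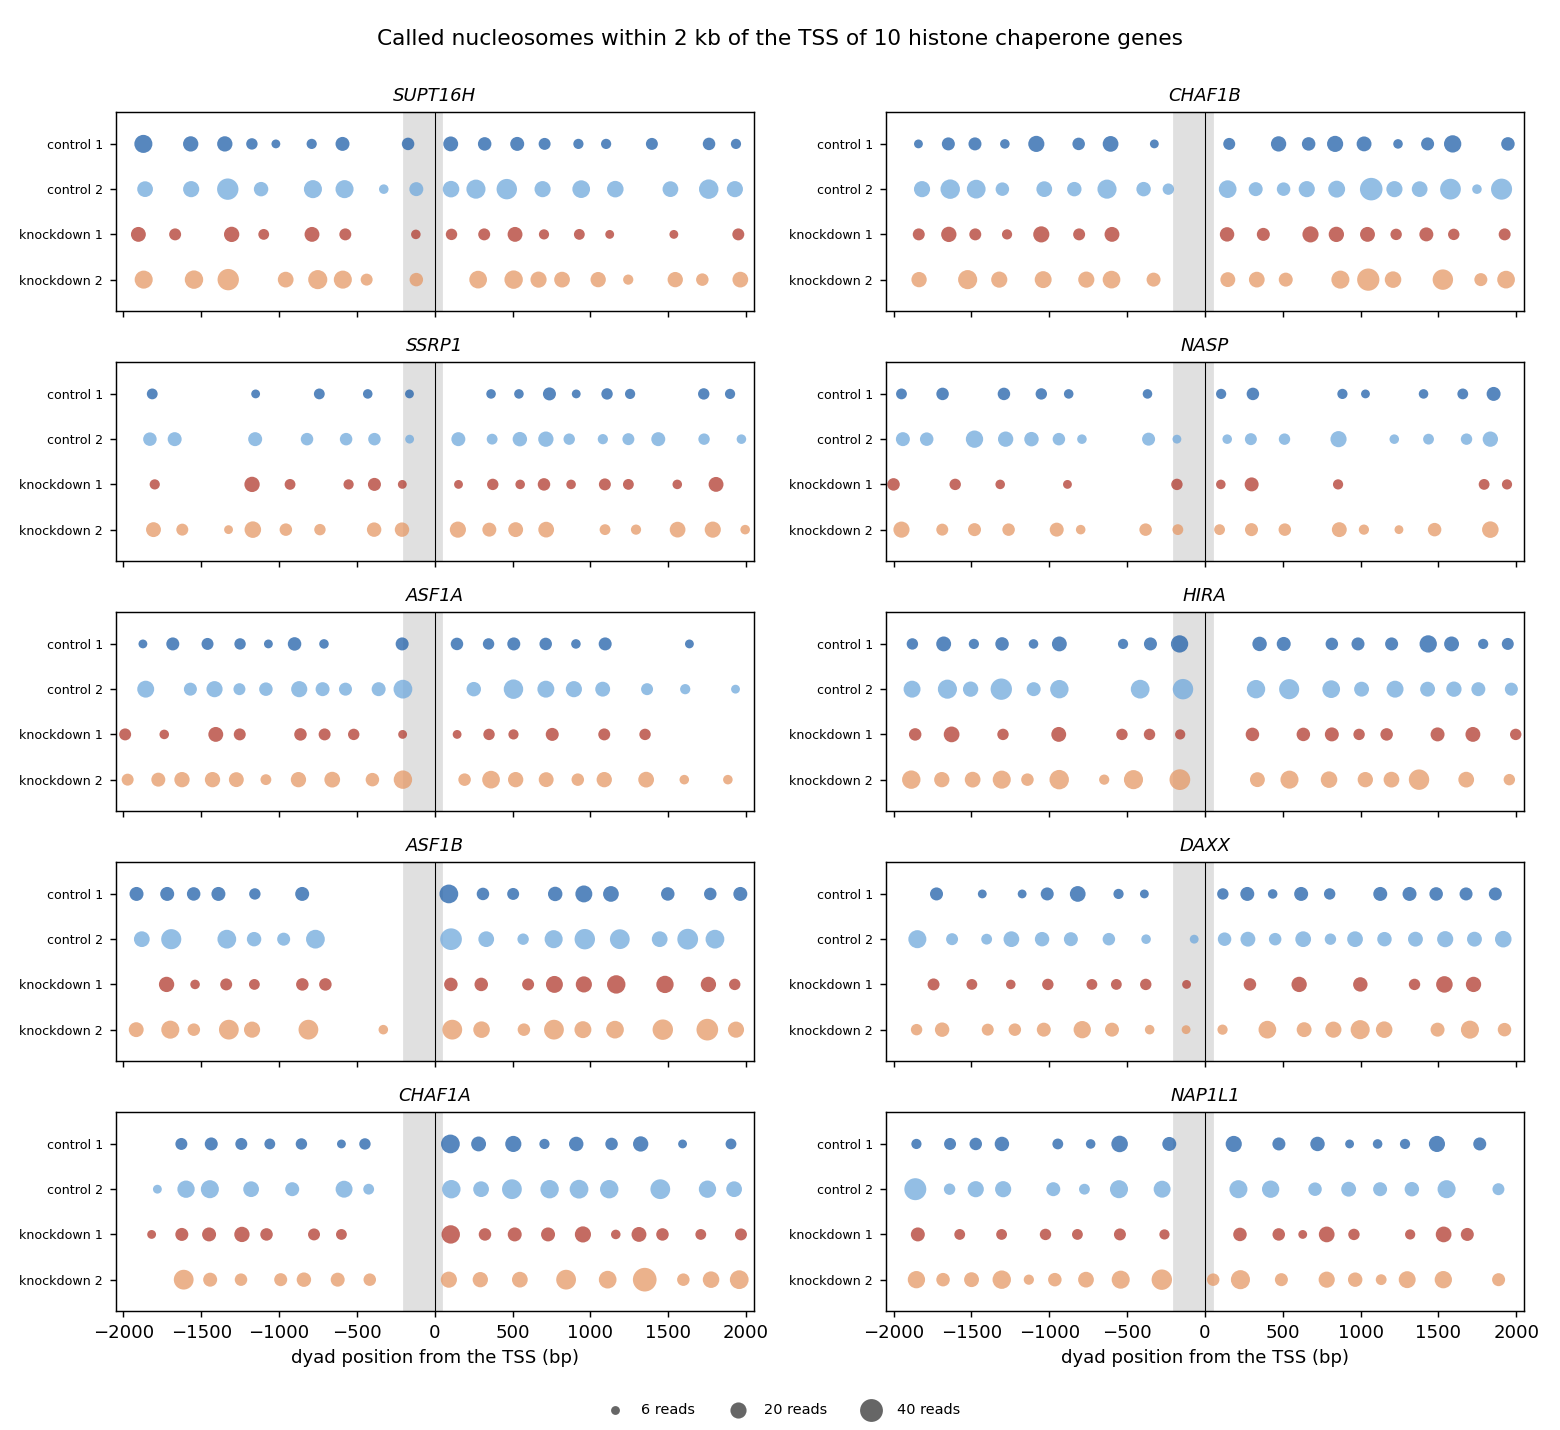
Called nucleosomes within 2 kb of the TSS of each chaperone gene, 1 row per library: the horizontal axis is the dyad position from the TSS in bp, the area of a point is proportional to the reads of the nucleosome, and the grey band is the window from -200 to 50 bp. The starts of ASF1B and CHAF1A stand open in all 4 libraries, and ASF1A has an upstream dyad within a span of 5 bp.

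The length of DNA left uncovered at the TSS, measured between the ends of the nucleosomes that flank it, separated the genes more than the siRNA did. ASF1B, the ASF1 paralog of dividing cells, had the widest stretch, with 795 and 724 bp in the controls and 659 and 296 bp after knockdown. It exceeded that of 96.7% of promoters in the median library. The value of 296 bp came from 1 nucleosome of 7 reads at -330 bp that was called in knockdown replicate 2 alone. In the other libraries the stretch of ASF1B also took in the start of ADGRL1-AS1, 557 bp upstream. CHAF1A, the large subunit of CAF-1, had 402 and 384 bp in the controls and 555 and 361 bp after knockdown, which was above 92.2% of promoters. CHAF1B, the CAF-1 subunit of WD repeats, had 334, 234, 592 and 330 bp in the same order of libraries, and HIRA had 367, 322, 317 and 351 bp. Their median ranks were 84.6% and 85.5%.

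At the other end stood SUPT16H, with 127 and 76 bp in the controls and 82 and 250 bp after knockdown, a median rank of 34.1%. NASP had 326 and 176 bp in the controls and 135 and 121 bp after knockdown. Both knockdown values of NASP were below both controls, and the same held for 13.7% of 20079 promoters. ASF1B also had both knockdown values below both controls. Replicates of 1 group lay far apart in DAXX, with 357 and 48 bp in the controls and 260 and 87 bp after knockdown. Over the 10 genes the median stretch was 346 and 271 bp in the controls and 288 and 250 bp after knockdown, against 166, 138, 177 and 137 bp over all promoters. The list was above the median of all promoters in each library, and its values in the groups overlapped.

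**Figure D2:**
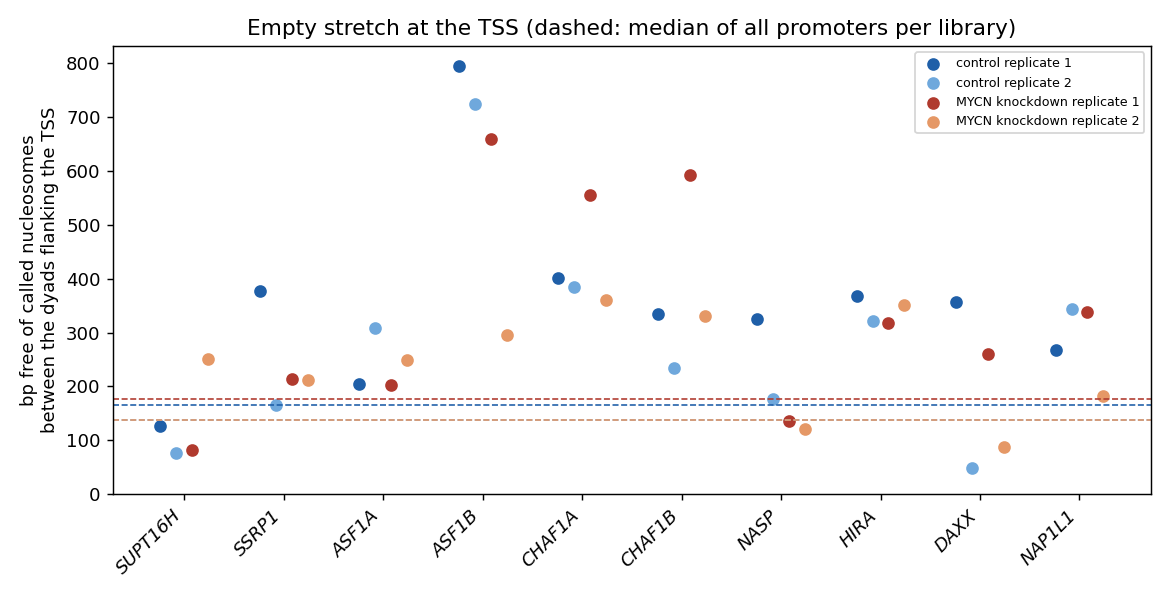
DNA free of called nucleosomes at the TSS in bp (vertical axis) for each chaperone gene, with 1 point per library. Dashed lines are the medians over all promoters, 1 per library (137 to 177 bp), and the points of ASF1B (296 to 795 bp) and CHAF1A (361 to 555 bp) all lie above them.

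The first nucleosome downstream of the TSS, called +1, was placed with little spread in several genes. In CHAF1A its dyad lay at 101 and 107 bp in the controls and at 103 and 91 bp after knockdown, with 20 to 27 reads. In ASF1B it lay at 91, 105, 104 and 113 bp with 14 to 36 reads, and in CHAF1B at 156, 146, 142 and 147 bp with 11 to 24 reads. In CHAF1A and ASF1B the dyad of this nucleosome falls in the untranslated part of exon 1, and in CHAF1B in an intron. In none of these genes did the positions of all 4 libraries fall within 10 bp of each other, as they did in 7.38% of 18902 promoters.

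For SUPT16H, which encodes the large FACT subunit SPT16, the +1 dyad lay at 103, 105 and 108 bp in exon 1 with 17, 21 and 10 reads, in control replicates 1 and 2 and knockdown replicate 1. In knockdown replicate 2, the deeper of the knockdown libraries, no nucleosome was called there and the next dyad was at 279 bp with 24 reads. One library of the group thus kept the +1 position of the controls and the other did not. In NAP1L1 the +1 dyad lay at 185, 215 and 225 bp, and at 53 bp in knockdown replicate 2, where a nucleosome of 12 reads was called between the TSS and another dyad at 228 bp. HIRA had its first downstream dyad at 351, 328, 305 and 337 bp.

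On the upstream side, ASF1A had the steadiest nucleosome of the list. Its first upstream dyad lay at -209 and -204 bp in the controls and at -206 and -204 bp after knockdown, with 13, 27, 6 and 26 reads and a fuzziness of 17.8, 31.8, 14.5 and 24.0 bp. All 4 positions fell within 10 bp, as in 5.51% of the 16179 promoters with a dyad within 400 bp upstream in every library. It is the nucleosome whose sequence is printed above, of 81% G and C.

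SSRP1, which encodes the HMG-box subunit of FACT, had its first upstream dyad at -162 and -161 bp in the controls and at -208 and -210 bp in the knockdown libraries. The groups did not overlap, which was true of 31% of the 16179 promoters with such a dyad within 400 bp in every library. Among the listed genes that meet this limit, SSRP1 alone showed it. The groups did not overlap either in ASF1B (-851 and -766 against -702 and -330 bp) and CHAF1B (-325 and -235 against -597 and -330 bp). Their dyads lay beyond 400 bp in some libraries, so the share of 31% does not cover them. Of all 10 genes 3 showed it, and the share of all promoters without the limit was not computed. Replicates within 10 bp of each other together with group means at least 20 bp apart were found in 1.06% of the 16179 promoters. This criterion was set after the SSRP1 values had been seen. The nucleosome had 6 reads in each control, the fewest that were listed, and 6 and 16 reads in the knockdown libraries, with a fuzziness of 22.1 and 19.5 bp against 38.6 and 37.6 bp. The fuzziness divided by the square root of the reads, a rough error of the position, was 9.01 and 7.94 bp in the controls and 15.7 and 9.41 bp after knockdown. The capitals in the printed SSRP1 sequence run over the 50 bases between these positions, of which 36% were G or C, against 57.5% in the rest of the stretch. With 2 libraries per group an exact permutation test of this position cannot give a two-sided p below 0.33. By the 80% rule the window was free in all 4 libraries. Where a nucleosome only had to lie 50% inside, the SSRP1 window was held in both controls and free in both knockdown libraries, as it was in 6.3% of 5254 promoters, so the state of this window rests on the rule.

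Whether nucleosomes near the start moved between the groups more than between replicates was measured per gene, as the median distance between mutually closest dyads of nucleosomes that overlapped by at least 31 bp, within 2 kb of the TSS. In SSRP1 this distance was 20.1 bp between control and knockdown libraries and 11.5 bp between replicates, a difference of 8.62 bp. In SUPT16H it was 27.1 against 20.5 bp, and in NAP1L1 23.6 against 12.5 bp. In these 3 genes the difference was larger with the true groups than when the 4 libraries were grouped otherwise. An exact permutation test (one-sided) gave p = 0.33 for each, the smallest value it can give. Where the groups do not differ, a share of about 0.33 of genes reaches this value, and 3 of the 10 did. The share of all promoters that reached it was not computed. With 1 library left out the difference ran from -1.5 to 22 bp in SUPT16H, turning below 0 without either control library, and reaching 22 bp without knockdown replicate 1. In SSRP1 it ran from 3 (without knockdown replicate 2) to 14 bp (without control replicate 2), and in NAP1L1 from 3.5 (without knockdown replicate 1) to 22.8 bp (without control replicate 2). CHAF1B had 21.6 against 21.5 bp, and in the other 6 genes the replicates were further apart than the groups, up to NASP with 32.2 bp between replicates and 21.1 bp between groups. The difference was above 0 in 4 of 10 genes and in 47.4% of 20060 promoters. Over the 10 genes the medians were 21.4 bp between groups and 21.0 bp between replicates, and over all promoters 23.8 and 23.5 bp.

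Reads in called nucleosomes were summed over the 4 kb centred on the TSS as a measure of promoter occupancy and tested over all 20112 promoters with edgeR. No promoter passed an adjusted p of 0.05 (0%), 557 had an unadjusted p under 0.05 (2.77%), and with DESeq2 0 passed and 187 were under 0.05 unadjusted. None of the 10 chaperone promoters passed, and in this fit none had an unadjusted p under 0.05. The log2 changes ran from -0.20 to 0.38, with 4 above 0 and a median of -0.061 against -0.0012 over all promoters. The FACT subunits stood on opposite sides: SSRP1 had the highest of the 10 changes, and SUPT16H was among the lowest.

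SSRP1 had 106 and 205 reads in the controls and 148 and 243 after knockdown. Scaled by TMM and the total of reads in promoters (CPM), these were 23.9 and 28.3 against 34.3 and 34.4. The knockdown values were both above the controls, as they were in 14.6% of promoters, and the log2 change was 0.38 (SE 0.20, edgeR adjusted p = 0.9999). For SUPT16H the scaled values were 48.8 and 51.9 in the controls and 39.0 and 49.1 after knockdown, a log2 change of -0.18 (SE 0.13, edgeR adjusted p = 0.9999). The groups of SUPT16H overlapped.

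Among the other genes, CHAF1B, HIRA and DAXX had both knockdown values below both controls, as 14.7% of promoters did. CHAF1B had 52.6 and 58.8 CPM in the controls and 52.4 and 49.6 after knockdown, HIRA 55.3 and 53.3 against 44.8 and 50.8, and DAXX 44.7 and 41.7 against 38.5 and 40.6. Their log2 changes were -0.14 (SE 0.13), -0.17 (SE 0.13) and -0.12 (SE 0.14). NASP was at -0.20 (SE 0.23) with overlapping groups and low counts, 122 and 216 reads in the controls and 92 and 199 after knockdown. ASF1A, ASF1B, CHAF1A and NAP1L1 lay between -0.00 and 0.07. For HIRA the sign depended on the start chosen: at the most upstream annotated TSS, at 19434973 on chromosome 22 and not at the canonical 19419256, the change was 0.26.

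Closer to the start the values spread wider, among all promoters and in 9 of the 10 genes. The median absolute log2 change over all promoters was 0.09 over 4 kb and 0.18 in the 1 kb centred on the TSS. In this smaller window, chosen after the maps had been seen, SUPT16H had 43 and 103 reads in the controls and 28 and 49 after knockdown. The scaled values were 39.6 and 61.3 against 27.2 and 29.6, a log2 change of -0.84 (SE 0.29, edgeR adjusted p = 0.9997). SSRP1 had 20 and 42 reads in the controls and 35 and 67 after knockdown, scaled to 18.4 and 25.0 against 34 and 40.5, a change of 0.77 (SE 0.36, edgeR adjusted p = 0.9997). CHAF1A had 54 and 84 reads against 38 and 50, scaled to 49.7 and 50 against 36.9 and 30.2, a change of -0.59 (SE 0.28, edgeR adjusted p = 0.9997). The groups did not overlap in 7 of the 10 genes, these 3 and CHAF1B, HIRA and DAXX, which were lower after knockdown, and NASP, which was higher. The changes of these others were -0.27 (SE 0.32), -0.30 (SE 0.27), -0.32 (SE 0.34) and 0.28 (SE 0.41). Both knockdown values were below both controls in 16% of 20049 promoters and above them in 15.9%. Of all promoters 743 (3.71%) had an unadjusted p under 0.05 in this window, these 3 genes among them, and 0 passed the adjusted threshold.

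Nucleosomes at the edge of the 1 kb window entered into these sums. In SUPT16H a dyad at 463 bp with 32 reads counted in control replicate 2, while the corresponding dyads at 530, 516 and 507 bp in the other libraries fell outside it. In CHAF1A a dyad at 496 bp with 30 reads counted in control replicate 2, and those at 505, 514 and 547 bp did not. Over the 4 kb window CHAF1A was at 0.07, with the opposite sign.

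**Figure D3:**
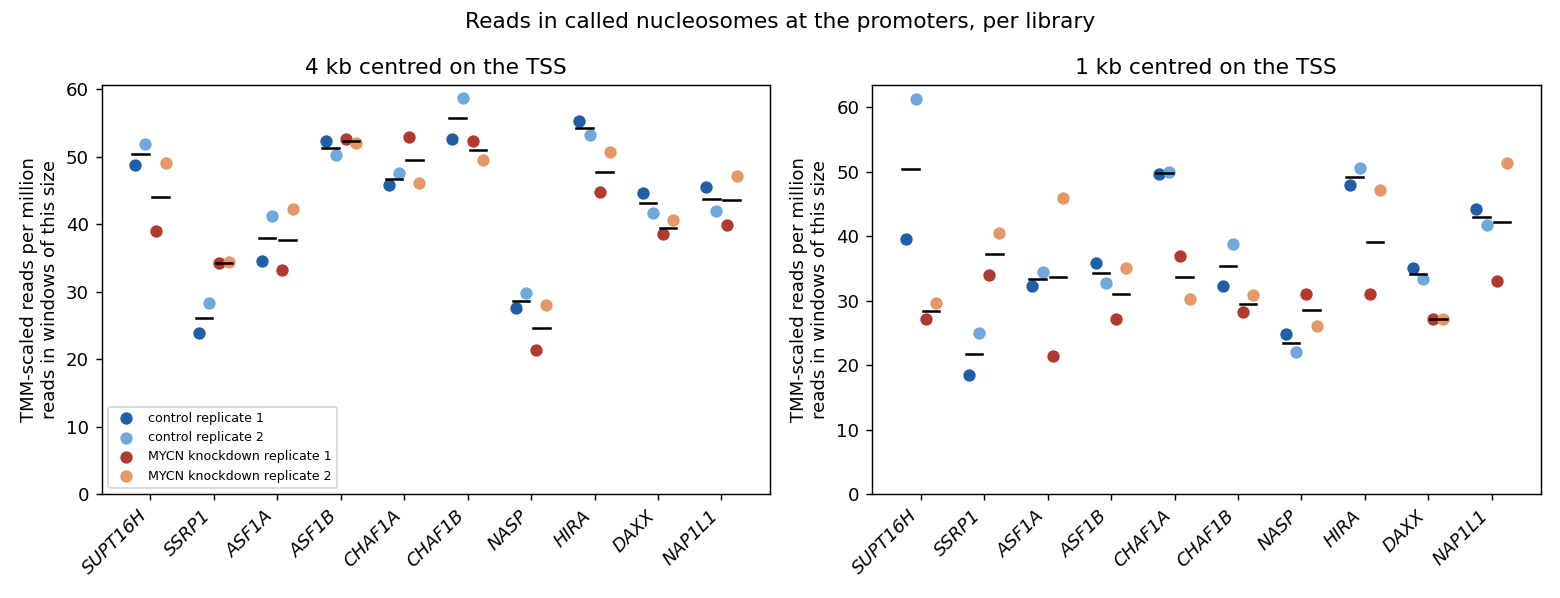
Reads in called nucleosomes per library at the chaperone promoters, over 4 kb (left) and 1 kb (right) centred on the TSS, as TMM-scaled CPM of reads in windows of that size on an axis from 0; bars are group means over 2 libraries. In both windows the knockdown values of SSRP1 (34.3 and 34.4 over 4 kb) lie above its controls (23.9 and 28.3), and those of SUPT16H lie below its controls over 1 kb only.

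Over the whole gene bodies the chaperone genes differed among each other far more than between the groups. In RPKM, the reads per kb of gene scaled to the total of reads in called nucleosomes, the means over the 4 libraries were 0.524 ± 0.0155 (SD, n = 4) for ASF1B, 0.504 ± 0.0165 for CHAF1A, 0.472 ± 0.0104 for HIRA, 0.441 ± 0.00902 for CHAF1B and 0.416 ± 0.0272 for SUPT16H. Below these came DAXX with 0.382 ± 0.0137, NAP1L1 with 0.357 ± 0.0230, ASF1A with 0.271 ± 0.00313, SSRP1 with 0.259 ± 0.00964 and NASP with 0.206 ± 0.0254. In this order the ranges over the libraries overlapped between ASF1B and CHAF1A, from CHAF1B through SUPT16H and DAXX to NAP1L1, and between ASF1A and SSRP1. The other neighbours in the order were apart. ASF1B stood above 84.4% of protein-coding genes, and SSRP1 and NASP above 17.7% and 7.86%. The number of copies of each gene and its base composition enter into these levels and were not separated from occupancy.

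NASP, the lowest in this order, had 102 and 107 called nucleosomes in the libraries numbered 1 and 150 and 149 in those numbered 2, or 2.91 and 3.05 against 4.28 and 4.25 per kb. The medians over protein-coding genes were 4.05 and 4.07 against 4.39 and 4.40 per kb. The called nucleosomes of NASP thus differed by replicate number and not by siRNA. Its RPKM also differed by number, with 0.179 and 0.190 against 0.230 and 0.225, and the part of depth and of the minimum of 6 reads in this was not tested.

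None of the 10 gene bodies passed the test of occupancy (0% of 20088 called by edgeR, with 418, or 2.08%, at an unadjusted p under 0.05, and 0 called with 59 under 0.05 by DESeq2). Log2 changes ran from -0.05 for SUPT16H (SE 0.08) to 0.08 for SSRP1 (SE 0.10), with 4 genes above 0. HIRA, the longest with 116753 bp, was fixed most closely, at -0.02 (SE 0.04). With TMM scaling its mean of 115 CPM of reads in gene bodies in the controls and 113 CPM after knockdown came from overlapping groups. With the same scaling SSRP1 and CHAF1B had both knockdown values above both controls, 5.37 and 5.50 against 5.33 and 4.96 and 30.7 and 31.4 against 29.8 and 30.6, as 15.6% of gene bodies did, and no gene of the list had both below both controls (15.7%). This pattern depended on the scaling: in RPKM, without TMM, 0 of the 10 genes had both knockdown values above both controls (9.59% of gene bodies), and ASF1A, CHAF1A, HIRA and DAXX had both below (24.2%).

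**Figure D4:**
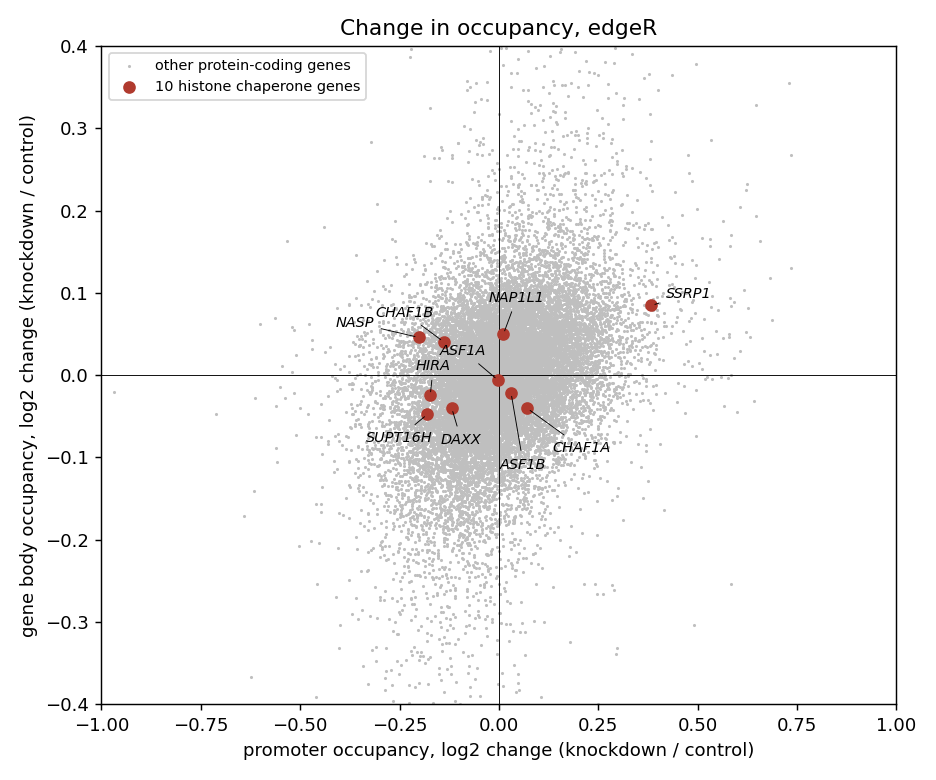
Log2 change in occupancy (knockdown over control, edgeR) of the promoter (4 kb, horizontal axis) and the gene body (vertical axis) for 19907 protein-coding genes (grey, with the 10 chaperone genes among them in red), 167 more lying outside the axes. The chaperone genes lie within the cloud, with SSRP1 furthest to the right at 0.38 and 0.08.

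The array of nucleosomes within the genes was described by its spacing, the mean distance between neighbouring dyads 100 to 300 bp apart, and by mean fuzziness, both tested with limma on genes with at least 20 distances or nucleosomes in every library. Of 16099 genes 0 passed for spacing (0%; 779, or 4.84%, under 0.05 unadjusted), and of 17157 genes 0 passed for fuzziness (0%; 39, or 0.227%). ASF1A was the only one of the 9 genes of the main list that were tested with an unadjusted p under 0.05. Its spacing was 210.7 and 215.0 bp in the controls and 203.3 and 204.1 bp after knockdown, which is -9.12 bp (SE 2.69, limma adjusted p = 0.9994). For ASF1A 37 to 53 distances per library entered into the means. Both knockdown values were below both controls in ASF1A, ASF1B and NAP1L1 among the 9 tested genes, as in 16.3% of all genes. In CHAF1B both were above both controls, as in 14.7% of all genes.

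The spacing of the other genes changed by -4.27 (NAP1L1) to 5.71 bp (SUPT16H). SUPT16H was at 214.0 and 204.8 bp in the controls and 217.7 and 212.6 bp after knockdown. For SSRP1 the 4 values were 193.8 and 227.1 bp in the controls and 218.3 and 201.4 bp after knockdown, so that from control to knockdown it was 24.5 bp longer in the libraries numbered 1 and fell by 25.7 bp in those numbered 2. DAXX, the shortest gene with 4459 bp, held 17 to 23 nucleosomes and was left out of both tests. It had 20 and 23 nucleosomes in the controls and 17 and 19 after knockdown, and a spacing of 193.8 and 188.7 against 196.1 and 210.9 bp.

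In 9 of the 10 genes mean fuzziness was higher in both libraries numbered 2 than in both numbered 1. SUPT16H had 35.3 and 37.9 bp in the controls and 34.2 and 37.5 bp after knockdown. SSRP1 differed from this: it had 34.8 and 33.4 bp in the controls and 35.5 bp in each knockdown library, a change of 1.39 bp (SE 1.37, limma adjusted p = 1). In this fit, which had no term for the replicate number, the SE was 1.37 bp for every listed gene tested. With such a term (a replicate block) the SE of SSRP1 was 0.50 bp (limma adjusted p = 0.87). In that fit 963 of 17157 genes were under 0.05 unadjusted and 0 passed. Both knockdown values of SSRP1 were above both controls, as in 1.82% of genes. This share is low where fuzziness goes with the replicate number, since the groups then overlap. Over all genes the median was 34.58 and 34.54 bp in the libraries numbered 1, and 36.35 and 36.27 bp in those numbered 2. The means of SSRP1 rest on 38 to 45 nucleosomes per library.

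**Figure D5:**
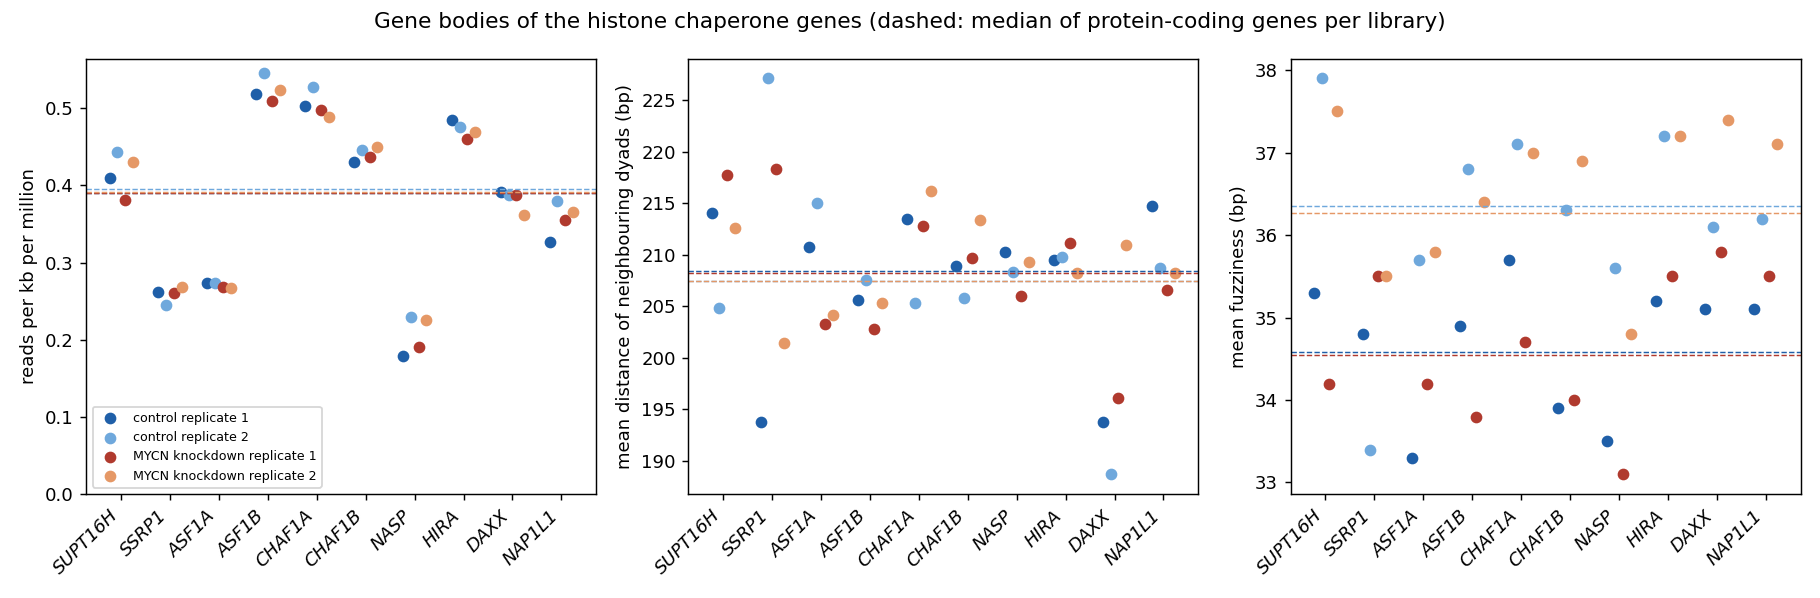
Occupancy in RPKM (reads per kb per total of the library, left, axis from 0), mean distance of neighbouring dyads in bp (centre) and mean fuzziness in bp (right, both axes cut) over the gene bodies of the chaperone genes, 1 point per library, with dashed lines for the medians of protein-coding genes per library. Occupancy is lowest in NASP, SSRP1 and ASF1A, and the spacing of ASF1A is 203.3 and 204.1 bp after knockdown against 210.7 and 215.0 bp.

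Single nucleosomes of the gene bodies rarely kept their place. Of 1412 nucleosomes called in control replicate 1 over the 10 genes, 43 had a dyad within 10 bp in each of the other 3 libraries (3.05%), against 2.68% of 5158371 over all protein-coding gene bodies. HIRA held 19 of them among 491, and CHAF1A and CHAF1B 6 each among 181 and 137. SSRP1 had 0 of 38 and DAXX 0 of 20. The most sharply placed, by mean fuzziness over the libraries, was an intronic nucleosome of CHAF1A (chr19:4427172-4427318) with a fuzziness of 23.5 bp and 13 to 20 reads. That of CHAF1B, 5056 bp into the gene and printed above, had dyads at 5058 and 5057 bp in the controls and 5054 and 5055 bp after knockdown, with 19, 14, 8 and 15 reads. In HIRA the corresponding intronic nucleosome (chr22:19402261-19402407) had dyads within 8 bp and a fuzziness of 24.5 bp.

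A second list held 24 other histone chaperones and direct partners of the 10, such as ATRX, the UBN1 and CABIN1 subunits that work with HIRA, and RBBP4 and RBBP7, which bind H4. None of their promoters passed the test of occupancy, and 2 (CABIN1 and SET) had an unadjusted p under 0.05 (edgeR), against 2.77% of all promoters. Of the log2 changes 13 were above 0 and 11 below, with a median of 0.052. The highest value was that of DNAJC9, an H3-H4 chaperone of the heat shock protein family. Its promoter had 135 and 231 control reads and 179 and 259 after knockdown (0.31, SE 0.17, edgeR adjusted p = 0.9999). The lowest value was that of RBBP7, with 131 and 176 control reads and 100 and 142 after knockdown (-0.32, SE 0.27, edgeR adjusted p = 0.9999). Among the 24 genes the window was free in all 4 libraries in 14, against 32.3% of all promoters. It was held in all 4 in 1, NAP1L5, against 19.9%. In 1 gene, NPM3, a nucleoplasmin, the window was held in both controls and free in both knockdown libraries. The same was seen in 5.64% of the 8559 promoters that were free in both knockdown libraries. NPM3 was named after its values had been seen. In gene body spacing 3 of the 20 tested genes of this list had an unadjusted p under 0.05 (limma), against 4.84% of all genes. They were SET (10.3 bp), SUPT6H (8.83 bp) and IPO4 (-9.06 bp), also named after their values had been seen. None of the 3 passed the adjusted threshold.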

How the data were processed

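BE(2)C cells had been transfected with control or MYCN siRNA, and crosslinked mononucleosomal DNA was sequenced in 2 libraries per group. The authors trimmed reads with Trim Galore 0.4.4, mapped them to hg19 with Bowtie2 2.2.4 (versions and CASAVA 1.9 from the submitters' processing notes), removed duplicates and called nucleosomes in each library with Genetrack. Per called nucleosome of at least 6 reads, a whole read count was deposited, taken here as unscaled. The other value that the authors deposited, fuzziness, is a standard deviation in bp. Absence from a list can mean too few reads.

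Groups came from the sample titles. Counts were summed around the canonical TSS (GENCODE v44lift37, 19881 of 20163 genes with one marked, the most upstream start for the rest) and over genes, and tested with edgeR 4.0.16 (quasi-likelihood, TMM, group only, mean count at least 10). DESeq2 1.42.0 was an alternative. Means per gene were tested with limma 3.58.1. All p-values were adjusted by Benjamini-Hochberg over all genes, with a call under 0.05. Simulated data with 200 features changed by a log2 value of 1.0 were recovered at 96.5% (20112 promoters) and 97.5% (20088 gene bodies), with 7 and 3 false calls. The simulation held no shared effect of the replicate number. Recovery was not tested at the smaller changes seen in the listed genes. Sequences were read from GRCh37. The 10 genes, both gene lists and the rules for naming (all 10 genes; of the second list those past the threshold and the largest rise and fall; flanking dyads within 400 bp; the lowest fuzziness among dyads shared within 10 bp) were chosen with earlier results of these data known. Alternatives were other scalings, count filters, windows, GC correction, a replicate block and leaving out each library.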

Additional observations from a re-analysis of the deposited data

How the results depend on the processing

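The count of called features stayed at 0 for promoters, fuzziness and spacing under every alternative run, and for gene bodies under all but those with a replicate block. With a replicate block 2049 gene bodies were called (1302 higher, 747 lower), and with GC correction and the block together 325 (300 higher); none was a chaperone gene of the main list, and the cause was not tested. The labels do not say that a replicate number marks a shared culture or day. Across genes, libraries of 1 number deviated from the means of their groups with a correlation of 0.37 (promoters), 0.39 (gene bodies), 0.16 (fuzziness) and 0.01 (spacing). The change in gene bodies correlated with GC content with r = -0.39. Over 4 kb the SSRP1 promoter had an unadjusted edgeR p of 0.021 with the block (adjusted 0.75), where 1275 of 20112 promoters were under 0.05. With GC correction and the block its unadjusted edgeR p was 0.023 (adjusted 0.85), where 1102 promoters were under 0.05.

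Over single same-numbered pairs, read as a replicate block, 2 chaperone windows were lost in pair 1 and 1 formed in pair 2. With one library left out, 0 to 2 were lost and 0 to 1 formed, and 4 to 6 displacement differences were above 0. With a nucleosome only 50% inside, 1 window formed (SSRP1). With nucleosomes of at least 12 reads, 8 displacement differences were above 0 in place of 4. For windows formed with the 50% rule the share over all promoters was 6.3% of 5254. Under the other settings of this paragraph that share was not computed, so these counts cannot be set against promoters in general.

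Some signs turned. For promoters (log2), the 1 kb window turned CHAF1A to -0.586 (-0.589 with the block), NASP to 0.28 (0.277), ASF1A to 0.0582 (0.0101), ASF1B to -0.117 (-0.121) and, with the block, NAP1L1 to -0.004. The promoter of the study, from 2 kb upstream to 1 kb downstream, turned ASF1B to -0.0484 and CHAF1A to -0.0561. The most upstream TSS turned HIRA to 0.26 and NAP1L1 to -0.0129, and GC correction turned NAP1L1 to -0.00395. For gene bodies (log2), GC correction turned ASF1B to 0.0323 (0.0307 with the block), CHAF1A to 0.0147 (0.0105), HIRA to 0.00395 (0.00645) and DAXX to 0.0262 (0.0239), and NAP1L1 to -0.00535 with the block. For spacing (bp), distances of 100 to 250 bp turned SSRP1 to 4.97, CHAF1B to -2.2 and HIRA to 1.19, and at least 12 reads turned HIRA to 0.41. For fuzziness (bp), at least 12 reads turned NASP to 0.887, and weighting by reads turned HIRA to -0.0462.

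Leaving out 1 library at a time turned signs in these ranges. Promoters: ASF1A -0.205 to 0.145, ASF1B -0.00111 to 0.0576, CHAF1A -0.0185 to 0.175, NAP1L1 -0.128 to 0.115. Gene bodies: ASF1A -0.0147 to 0.00302, ASF1B -0.0527 to 0.0127, DAXX -0.0912 to 0.0168, NAP1L1 -0.0504 to 0.163, NASP -0.113 to 0.241, SUPT16H -0.135 to 0.0298. Spacing: HIRA -1.5 to 1.46, SSRP1 -17.3 to 16.1. Fuzziness: ASF1A -0.727 to 1.72, ASF1B -2.12 to 0.493, CHAF1A -1.73 to 0.571, CHAF1B -1.07 to 1.77, HIRA -0.905 to 1.08, NAP1L1 -0.131 to 1.46, NASP -1.58 to 0.512, SUPT16H -2.42 to 0.914. Displacement: SUPT16H -1.5 to 22, NASP -21 to 7.25, ASF1A -8.5 to 3, ASF1B -13.5 to 11.2, CHAF1A -10.8 to 8, CHAF1B -7.25 to 4.5. The promoter change of SSRP1 stayed above 0 (0.279 to 0.522) and the spacing change of ASF1A below 0 (-11.3 to -6.99). In these fits the group left with 1 library was assumed to vary like the other.

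The minimum of 6 reads per called nucleosome is a limit: the nucleosomes that decided the windows of DAXX and the upstream position of SSRP1 in the controls had 6 reads, and whether reads below the minimum lay elsewhere is not shown by these files.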
